A study of Macaca mulatta with 39 samples.

Results

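The genes described here encode the ligands, secreted antagonists, receptors, SMAD proteins and ID targets of activin, nodal, bone morphogenetic protein (BMP) and transforming growth factor beta (TGF-beta) signalling. They were chosen by gene symbol, without regard to their signal, and 46 of the 14132 genes named by a single gene symbol on the array met the choice. These 46 genes had 91 probe sets, 25 of them had more than 1, and the brightest probe set, by its mean over all arrays, stood for each gene. By role they were 21 ligands or ligand subunits, 4 antagonists, 11 receptors (with the co-receptor TGFBR3 and the pseudoreceptor BAMBI), 6 SMADs, 3 ID genes and the protease BMP1. LEFTY1, LEFTY2, TDGF1, NOG, SMAD1, BMPR1A, BMPR2 and ID2 were not analysed here. RefSeq (assembly T2T-MMU8v2.0) placed 45 of the 46 on a rhesus chromosome, and TGFB1 was the gene without a match.

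Ligands of this family bind pairs of type I and type II serine/threonine kinase receptors, which phosphorylate SMAD proteins. Activin, nodal and TGF-beta act mainly through SMAD2 and SMAD3, and BMPs mainly through SMAD1, SMAD5 and SMAD9, while SMAD4 is the shared partner and SMAD6 and SMAD7 inhibit both branches. Activin and nodal signalling is known for sustaining primate pluripotent cells, BMP signalling for driving their differentiation, and TGF-beta for matrix production in fibroblasts.

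Messenger RNA was measured on single-colour arrays in cultured rhesus macaque cells, in a study that set pluripotent cells beside differentiated cells of the same or a related genome. Embryonic stem cells (ESCs), from early embryos, came from lines C3106 (male) and C3806 (female), with 1 line of each sex. Teratoma fibroblasts were explants of tumours that these lines formed in mice lacking a full immune system, with 5 cultures of line 3106 (TA31, TB31, TC31, TD31 and TE31) and 3 of line 3806 (TA38, TB38 and TC38). Skin fibroblasts were explants from parental animals (M032, M088 and M106p1). No treatment, passage, age or pairing of parent with line was given in the sources used here. Every culture had 3 arrays, and the labels call them biological triplicates without saying whether they came from separate cultures. A culture therefore counted once, as the mean of its arrays, and p-values over cultures measure the spread between cultures.

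Of 39 arrays, 3 went against their labels and were left out. POU5F1 read 4.84 on the array labelled C3806c (12.68 to 13.17 on the other 5 ESC arrays), and LUM read 12.56 (2.83 to 3.71). MYH3, an embryonic muscle myosin, read 11.61 on M106p1f and 6.83 and 6.75 on its sister arrays, and 7.03 on TB31c against 12.25 and 12.12. The remaining 36 arrays, 5 of ESCs, 23 of teratoma and 8 of skin fibroblasts, had medians of 6.25 to 6.48 on the log2 scale. One kept ESC array, C3806a, had a gap of 3.89 between the 3′ and 5′ actin probe sets, a sign of RNA quality, while the other kept arrays lay at or under 0.78. ESC markers were above background for 7 of 7 genes in both ESC lines, 0 to 2 in teratoma cultures and 0 in skin cultures. Fibroblast markers were above background for 7 of 7 in every fibroblast culture and for 4 of 7 in ESCs. TB31 and TD31 carried the strongest skeletal muscle signal, with list levels of 10.78 and 10.49 against 6.72 to 9.13 in the other teratoma cultures. MYH3 also read 10.22 in TA38 and 9.53 in TB38, against 4.44 to 7.25 in the rest. Background here means 6.725, the 95th percentile of 674 viral probe sets, and 37 of the 46 genes exceeded it in at least 1 culture. In bulk cultures, fewer cells of a type and less RNA per cell cannot be told apart.

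Most of these genes were not called between ESCs and fibroblasts, and INHBA, GDF6, TGFB3 and GDF15, lower in ESCs, had the largest called differences from teratoma fibroblasts. A gene was called when limma's adjusted p (Benjamini-Hochberg over all 14132 genes, two-sided) was under 0.05 and the log2 difference at least 1. Against teratoma fibroblasts, ESCs had 3 of the 46 higher and 10 lower, with 33 not called. These are 6.52% and 21.7% of the genes, beside 6.49% higher and 8.36% lower among all genes tested. The median difference, ESC minus teratoma, was -0.36 over the 46 genes and 0.03 over all genes. Against skin fibroblasts, ESCs had 4 higher and 12 lower, with 30 not called. These are 8.70% and 26.1%, beside 10.3% and 9.91% among all genes, and the median difference was -0.23 beside 0.03. The median size of the difference, in either direction, was 0.50 against teratoma and 0.53 against skin over the 46 genes, beside 0.29 and 0.35 over all genes. An unadjusted limma p under 0.05 was reached by 23 and 28 of the 46, and the share of all genes reaching it was not counted. The share called higher was thus near the background in both comparisons, and the share called lower was above it. On the second brightest probe sets the share called lower against teratoma was not above background (2 of 25, beside 574 of 6375 genes tested). Culture means did not overlap between ESCs and teratoma fibroblasts for 24 of the 46 genes (45.0% of all genes) and between ESCs and skin fibroblasts for 33 (60.3% of all genes). The 2 comparisons share the ESC cultures and are not independent of each other. Teratoma and skin fibroblasts differed in 2 of the 46 genes, BAMBI and BMP4, both higher in teratoma fibroblasts (4.35%, beside 1.00% of all genes), and culture means did not overlap for 5 of the 46 (7.59% of all genes). None was called lower (0.793% of all genes were). An unadjusted limma p under 0.05 was reached by 9 of the 46, with BAMBI and BMP4 among them. Of these 9, only FST and FSTL3 were lower in teratoma than in skin fibroblasts. The share of all genes reaching that p was not counted.

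**Figure D1:**
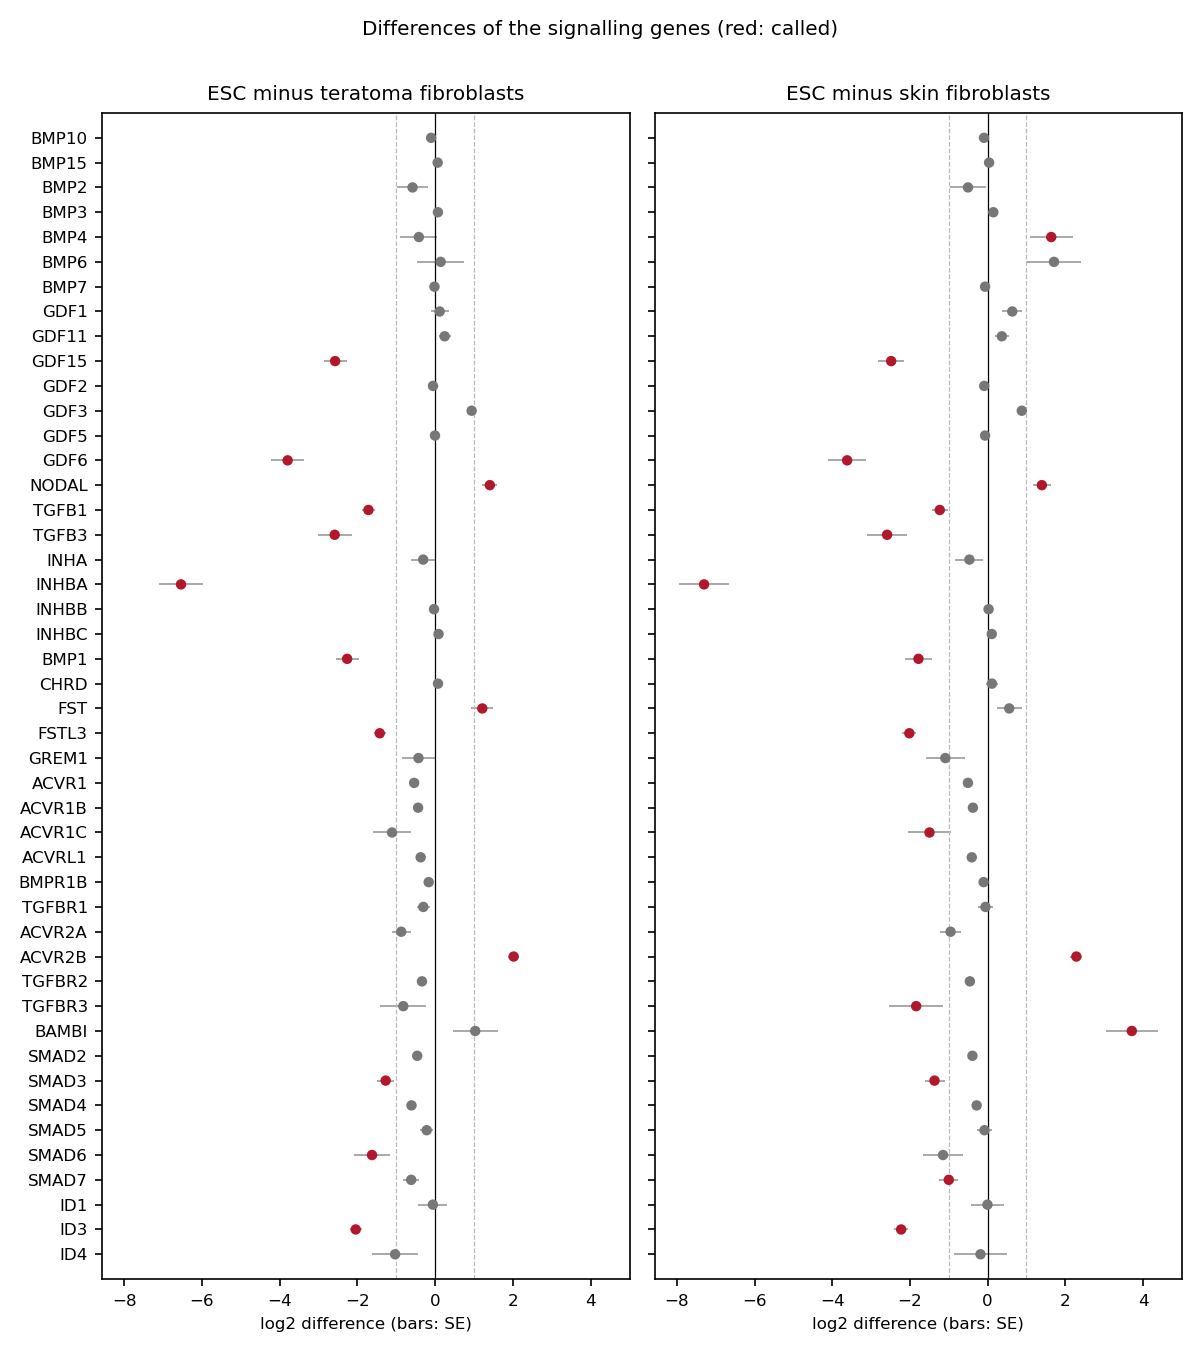
Log2 difference of each of the 46 genes, ESC minus teratoma fibroblasts (left) and ESC minus skin fibroblasts (right), ordered by role, with bars of 1 standard error from limma. Red points were called, dashed lines mark a difference of 1, and the longest departures are those of INHBA at -6.54 and -7.30.

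Among the ligands, INHBA showed the widest gap of all 46 genes. INHBA, on chromosome 3, encodes the beta A subunit whose dimer is activin A. Its log2 signal was 4.68 in C3106 and 5.01 in C3806. In teratoma cultures the lowest was 9.64, the median 11.72 and the highest 12.21, and in skin cultures it was 11.66, 12.59 and 12.18. Every fibroblast culture was above both ESC lines by more than 4 log2 units. INHBA was lower in ESCs by -6.54 ± 0.56 (SE) against teratoma (limma adjusted p = 2.14e-06) and by -7.30 ± 0.65 against skin (adjusted p = 3.13e-06). The ESC level was below 6.725, so the size of the gap is limited by background. Its other probe set gave -3.83 and -4.59, in the same direction. The other subunits were not called: INHA, the inhibin alpha subunit, was at -0.31 and -0.47, INHBC at 0.09 and 0.11, and INHBB, below background in every culture, at -0.03 and 0.02.

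NODAL, on chromosome 9, went the other way. NODAL is the ligand of early embryonic patterning that acts through activin receptors. Its signal was 7.04 in C3106 and 8.20 in C3806. Teratoma cultures lay at 6.15 to 6.31 (median 6.21) and skin cultures at 6.17, 6.21 and 6.30, all below 6.725. Both ESC lines were above all fibroblast cultures, with no overlap among single arrays either. The standard deviation of NODAL's culture means was 0.82 in ESCs, 0.06 in teratoma and 0.07 in skin cultures. The errors given next reflect mostly the fibroblast spread. The difference was 1.41 ± 0.20 against teratoma (limma adjusted p = 0.000113) and 1.40 ± 0.23 against skin (adjusted p = 0.000331). Its second probe set, at or under 6.16 in the class means, gave only 0.19 and 0.21. Without line C3806 the difference was 0.83 against teratoma and 0.82 against skin, under the limit of 1, so both calls rest on that line.

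The TGF-beta ligands measured were both lower in ESCs. TGFB1, the most widely studied fibrogenic ligand, had signals of 5.24 and 5.42 in ESCs. It lay at 6.61 to 7.27 (median 7.10) in teratoma cultures and at 6.80, 6.40 and 6.48 in skin cultures. All ESC values were under all fibroblast values, yet even the fibroblast signal was near background. TGFB1 fell by 1.72 on the log2 scale in ESCs against teratoma (SE 0.17, limma adjusted p = 8.73e-06) and by 1.23 against skin (SE 0.20, adjusted p = 0.00035). TGFB3, on chromosome 7, read 5.65 and 5.66 in ESCs. In teratoma cultures it spanned 7.59 to 8.82 (median 8.33), and in skin cultures it was 7.40, 9.54 and 7.79. TGFB3 was -2.59 in both comparisons (SE 0.44 and 0.51, limma adjusted p = 0.000479 and 0.00122), again with an ESC level below background. The second probe sets of these ligands stayed at 5.43 to 6.01 in all class means and gave 0.01 and 0.07 for TGFB1 and -0.16 and -0.31 for TGFB3.

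Of the growth and differentiation factors, 2 were lower in ESCs in both comparisons. GDF6, a BMP-type ligand of joint and skeletal patterning on chromosome 8, read 5.45 and 5.10 in ESCs. It read 8.57 to 9.83 (median 9.05) in teratoma cultures and 7.80, 9.08 and 9.79 in skin cultures, so no class overlapped with ESCs. The differences were -3.80 ± 0.42 (limma adjusted p = 1.87e-05) and -3.62 ± 0.49 (adjusted p = 8.21e-05). The second GDF6 probe set, whose class means were all under 4, gave 0.59 and 0.53. GDF15, on chromosome 19, is a divergent, stress-induced member of the family that does not signal through the classical receptors. Its signals were 8.43 and 8.65 in ESCs, 10.79 to 11.72 (median 11.02) in teratoma cultures, and 10.78, 10.52 and 11.76 in skin cultures. This ligand was well above background in every culture, and ESCs were lower by -2.57 ± 0.29 and -2.48 ± 0.34 (limma adjusted p = 2.29e-05 and 8.95e-05), about 5.96-fold and 5.59-fold. Its other probe set gave -2.34 and -2.24.

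GDF3, a nodal-related ligand on chromosome 11 known from pluripotent cells, was not called because of its size alone. Its signals of 6.26 and 6.46 in ESCs were above all teratoma cultures (5.31 to 5.62) and skin cultures (5.37, 5.40 and 5.67). The difference was 0.94 ± 0.10 (limma adjusted p = 1.41e-05) and 0.88 ± 0.12 (adjusted p = 7.24e-05). All of these values lay below 6.725. GDF1, a nodal co-ligand, was at 0.12 and 0.63, and GDF11, a ligand of trunk patterning, at 0.24 and 0.37, neither of them called.

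BMP4, on chromosome 7, a ligand that induces mesoderm and extra-embryonic fates, set skin fibroblasts apart from the other classes. ESCs read 8.22 and 8.78, and teratoma cultures 7.63 to 9.83 (median 8.81). Skin cultures read 6.83, 7.29 and 6.47, below every culture of the other classes. BMP4 was higher in teratoma than in skin fibroblasts by 2.06 ± 0.41 (limma adjusted p = 0.0176) and higher in ESCs than in skin by 1.64 ± 0.55 (adjusted p = 0.0288). ESCs and teratoma fibroblasts overlapped (-0.42 ± 0.47, adjusted p = 0.532). The call between teratoma and skin was kept without M088, the highest skin culture. Without M032 or M106p1 that difference was 2.04 and 1.86, about as large (limma adjusted p = 0.0633 and 0.0803). ESC minus skin was 1.62 and 1.44 without those cultures (limma adjusted p = 0.0586 and 0.0843), 1.91 without C3106 (adjusted p = 0.0572) and 1.36 without C3806 (adjusted p = 0.179).

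BMP6, on chromosome 4, had values of the same order without passing the test. It read 8.85 and 7.73 in ESCs, 6.53 to 9.29 (median 8.23) in teratoma cultures, and 5.93, 7.63 and 6.19 in skin cultures. The differences from skin were 1.71 for ESCs (limma adjusted p = 0.0689) and 1.57 for teratoma fibroblasts (adjusted p = 0.0936). BMP2, a ligand close to BMP4, was near background throughout, at 5.51 and 5.49 in ESCs, up to 6.96 in teratoma cultures and up to 6.89 in skin cultures. BMP7, a ligand of kidney and skeletal development, read 7.24, 7.26 and 7.30 in the class means of its brightest probe set and was not called (-0.02 and -0.07). Its other 4 probe sets were all higher in ESCs, by 0.42, 0.91, 1.41 and 0.84 against teratoma and by 0.42, 0.97, 1.45 and 0.89 against skin, so the value of BMP7 depends on the probe set. GDF5 (-0.00 and -0.07), BMP3, BMP10, BMP15 and GDF2 were not called, and the last 4 stayed below background in every culture. BMP1, on chromosome 8, shares the name but is the procollagen C-proteinase that also cleaves the antagonist chordin. It read 6.08 and 5.47 in ESCs, 7.67 to 8.65 (median 7.90) in teratoma and 7.25, 7.31 and 8.10 in skin cultures. BMP1 fell by 2.27 (SE 0.29, limma adjusted p = 6.46e-05) and by 1.78 (SE 0.34, adjusted p = 0.00105), while its other probe sets gave -0.46 and -0.81 against teratoma and -0.13 and -0.56 against skin.

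**Figure D2:**
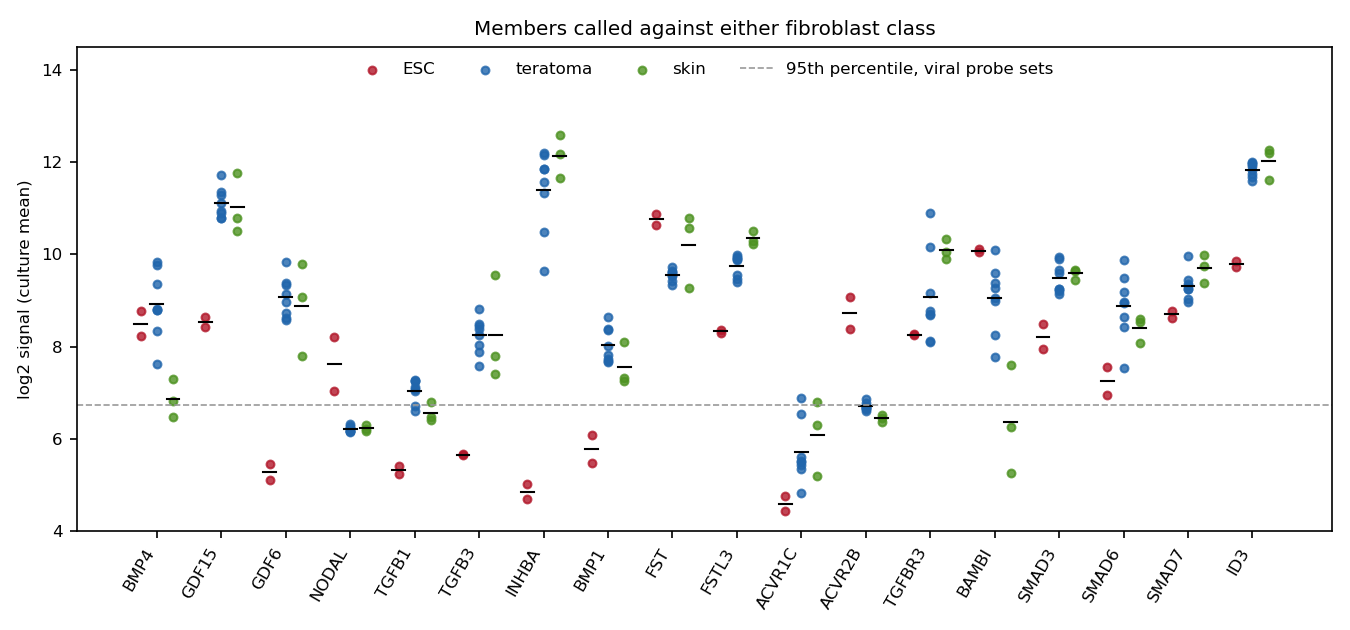
Culture means of the log2 signal for the genes called in ESCs against either fibroblast class (points: cultures, black bars: class means, dashed line: the background level of 6.725). INHBA, GDF6, TGFB3, TGFB1 and BMP1 lie below the line in both ESC lines, and BMP4 and BAMBI are lowest in the skin cultures.

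The secreted antagonists split. Follistatin, encoded by FST on chromosome 6, binds and neutralises activin. FST read 10.64 and 10.89 in ESCs, 9.33 to 9.72 (median 9.58) in teratoma cultures, and 10.57, 10.79 and 9.27 in skin cultures. ESCs were above all teratoma cultures by 1.21 ± 0.28 (limma adjusted p = 0.00407). The skin cultures M032 and M088 were at the ESC level and M106p1 at the teratoma level, and the difference from skin was 0.56 ± 0.32 (adjusted p = 0.196). The other 2 FST probe sets gave 1.21 and 1.85 against teratoma and 0.67 and 1.69 against skin. Without C3806 the difference from teratoma was 1.09 with a limma adjusted p of 0.0611.

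FSTL3, a follistatin-related binder of activin on chromosome 19, was lower in ESCs. It read 8.30 and 8.36 in ESCs, 9.41 to 9.99 (median 9.89) in teratoma cultures and 10.30, 10.23 and 10.51 in skin cultures, so the 3 classes did not overlap. The differences were -1.43 ± 0.16 (limma adjusted p = 1.85e-05) and -2.02 ± 0.18 (adjusted p = 3.68e-06). Teratoma and skin fibroblasts differed by -0.59 (adjusted p = 0.0314), under the fold limit. The BMP antagonist GREM1 read 6.33 and 6.36 in ESCs, 6.19 to 8.33 in teratoma cultures and 7.64, 6.97 and 7.70 in skin cultures. GREM1 was not called (-0.43 and -1.09, limma adjusted p = 0.471 and 0.0969), nor was CHRD, chordin, at 0.07 and 0.11.

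Among the receptors, only ACVR2B was called in both comparisons. ACVR2B, on chromosome 2, is a type II receptor for activin, nodal and several GDFs. Its signals were 8.37 and 9.08 in ESCs, 6.59 to 6.87 (median 6.69) in teratoma cultures, and 6.45, 6.36 and 6.53 in skin cultures. Both ESC lines exceeded all fibroblasts, whose signal lay at the background level. The difference was 2.02 ± 0.14 (limma adjusted p = 2.49e-07) and 2.28 ± 0.16 (adjusted p = 3.67e-07). With 2 of 8 teratoma cultures and 0 of 3 skin cultures above 6.725, its size is limited by background. It passed in all 23 alternative settings in each comparison, between 1.67 and 2.37 against teratoma. ACVR2B has a single named probe set. The standard deviation of its culture means was 0.50 in ESCs and 0.08 in teratoma and in skin cultures. The errors of its differences therefore reflect mostly the fibroblast spread. The related receptor ACVR2A, on chromosome 12, was on the other side at 7.53 and 7.76 in ESCs, 8.06 to 9.16 in teratoma cultures and 8.46, 8.56 and 8.78 in skin cultures. Its differences of -0.87 and -0.95 had limma adjusted p-values of 0.0109 and 0.0135 but missed the fold limit.

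**Figure D3:**
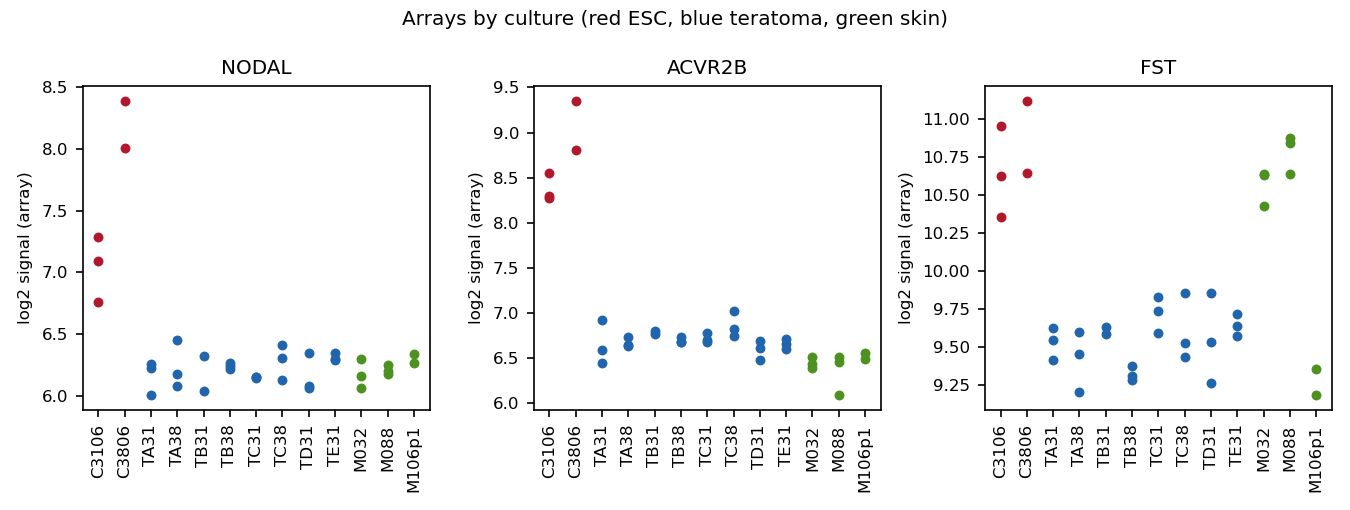
Log2 signal of NODAL, ACVR2B and FST on each of the 36 arrays, grouped by culture (red ESC, blue teratoma, green skin; the vertical scales differ). NODAL and ACVR2B are higher on all 5 ESC arrays than on any fibroblast array, and FST in the skin cultures M032 and M088 reaches the ESC range.

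BAMBI, on chromosome 9, encodes a pseudoreceptor without a kinase domain that dampens TGF-beta and BMP signalling. It read 10.06 and 10.11 in ESCs, 7.78 to 10.10 (median 9.16) in teratoma cultures and 5.26, 7.60 and 6.26 in skin cultures. Every ESC and teratoma culture was above every skin culture. BAMBI was higher than in skin by 3.71 ± 0.67 in ESCs (limma adjusted p = 0.000741) and by 2.68 ± 0.50 in teratoma fibroblasts (adjusted p = 0.0136). ESC minus teratoma was 1.03 ± 0.58 and not called (adjusted p = 0.188). The call between teratoma and skin was kept without M088, the highest skin culture. Without M032 and without M106p1 that difference was 2.12 and 2.62 (limma adjusted p = 0.0638 and 0.0587). ESC minus skin passed in all 23 alternatives.

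TGFBR3, betaglycan, presents TGF-beta and inhibin to the signalling receptors. ESCs read 8.25 and 8.27, teratoma cultures 8.11 to 10.89 (median 8.75), and skin cultures 10.34, 10.06 and 9.91. ESCs were lower than skin by -1.84 ± 0.69 (limma adjusted p = 0.0468), and its other probe sets gave -1.78 and -2.03. ACVR1C, the type I receptor ALK7, read 4.43 and 4.75 in ESCs, 4.82 to 6.88 in teratoma cultures and 6.29, 5.18 and 6.80 in skin cultures, at or below background in most. ACVR1C was at -1.50 ± 0.56 against skin (limma adjusted p = 0.0487). Both calls lie close to the threshold: TGFBR3 kept its call in 13 of 24 alternatives and ACVR1C in 10 of 23, with adjusted p-values up to 0.153 and 0.194.

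The main type I and type II receptors showed small negative differences. TGFBR1 and TGFBR2, the TGF-beta receptors, were strongly detected in all cultures, from 10.76 to 11.55 and from 11.22 to 11.80. Their differences were -0.30 and -0.06 for TGFBR1 and -0.34 and -0.46 for TGFBR2. ACVR1, a BMP type I receptor, was at -0.54 and -0.51 (limma adjusted p = 3.49e-05 and 0.000165), and ACVR1B, the activin type I receptor ALK4, at -0.44 and -0.38 (adjusted p = 0.00284 and 0.0148). These were smaller than the fold limit, as were those of TGFBR2 (limma adjusted p = 0.0163 and 0.00626). The culture means of ACVR1, ACVR1B and TGFBR2 did not overlap between ESCs and fibroblasts. ACVRL1 and BMPR1B stayed below background in every culture.

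On their brightest probe sets, all 6 SMADs had negative differences in both comparisons, and 3 were called in at least 1. Dimmer probe sets did not all follow, and the second SMAD6 probe set was at 0.10 against skin. SMAD3, the mediator of TGF-beta and activin on chromosome 7, read 7.95 and 8.49 in ESCs, 9.13 to 9.94 (median 9.42) in teratoma cultures and 9.45, 9.65 and 9.66 in skin cultures. ESCs did not overlap with fibroblasts, and the differences were -1.27 ± 0.22 (limma adjusted p = 0.000613) and -1.37 ± 0.26 (adjusted p = 0.000949). Its 3 other probe sets gave -0.61, -0.44 and -0.29 against teratoma, the same direction under the fold limit. SMAD2, the other mediator of this branch, read 9.79 and 9.87 in ESCs, 10.07 to 10.41 in teratoma cultures and 10.19, 10.28 and 10.19 in skin cultures. SMAD4, the shared partner, read 8.55 and 8.36 in ESCs, 8.84 to 9.22 in teratoma cultures and 8.86, 8.64 and 8.71 in skin cultures. SMAD2 (-0.46 and -0.39) and SMAD4 (-0.61 and -0.28) missed the fold limit, while the third brightest SMAD2 probe set was at -1.13 and -1.02. SMAD5, of the BMP branch, was at -0.22 and -0.08. Its other probe sets went both ways against skin, at 0.19, 0.35, 0.17, -0.33 and 0.003.

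The inhibitory SMADs are themselves induced by the pathway. SMAD6, which preferentially blocks BMP signalling, read 7.55 and 6.96 in ESCs, 7.53 to 9.88 (median 8.96) in teratoma cultures, and 8.60, 8.53 and 8.08 in skin cultures. C3106 overlapped with the lowest teratoma culture, TE31. SMAD6 was lower in ESCs than in teratoma fibroblasts by -1.62 ± 0.45 (limma adjusted p = 0.012), and -1.15 against skin was not called (adjusted p = 0.0968). The SMAD6 call was lost without C3806, and its second probe set gave -0.05. SMAD7, which blocks both branches, read 8.78 and 8.62 in ESCs, 8.98 to 9.96 (median 9.28) in teratoma cultures and 9.98, 9.39 and 9.74 in skin cultures. SMAD7 was at -0.62 against teratoma, not called. Against skin it was at -1.0 ± 0.25 (limma adjusted p = 0.00525), just at the fold limit. SMAD7 kept that call in 17 of 23 alternatives. The call was lost without array C3806a, among others, and SMAD7 read 7.84 on that array and 9.41 on C3806b.

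The ID genes encode dominant-negative helix-loop-helix proteins that BMP signalling induces, and they did not behave alike. ID3, on chromosome 1, read 9.73 and 9.87 in ESCs, 11.58 to 12.01 (median 11.87) in teratoma cultures and 12.26, 12.19 and 11.62 in skin cultures. No fibroblast culture came near the ESC lines. The differences were -2.04 ± 0.16 (limma adjusted p = 7.76e-07) and -2.23 ± 0.18 (adjusted p = 1.43e-06). Its 2 dimmer probe sets did not follow, at -0.02 and -0.19 against teratoma and 0.24 and -0.10 against skin. ID1 read 10.52 and 10.62 in ESCs, 9.95 to 11.29 (median 10.67) in teratoma cultures and 11.22, 10.87 and 9.64 in skin cultures. The classes overlapped fully, with differences of -0.06 ± 0.37 and -0.00 ± 0.43 (limma adjusted p = 0.92 and 0.996). ID4 was not called either, at -1.03 and -0.18.

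**Figure D4:**
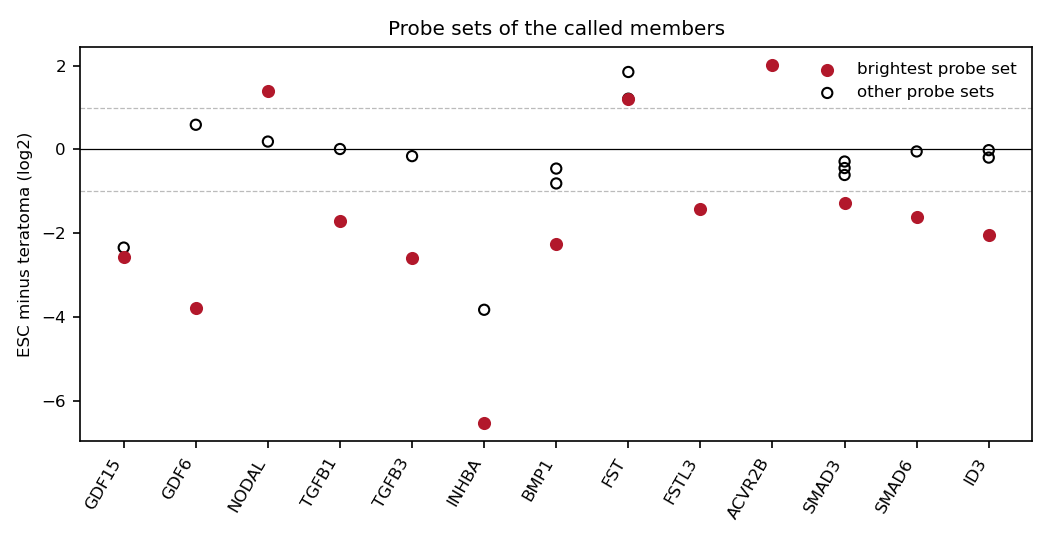
ESC minus teratoma log2 difference for each probe set of the 13 genes called in that comparison (red: the brightest probe set, which represents the gene; open circles: the gene's other probe sets). INHBA, GDF15 and FST have a further probe set past a difference of 1, and those of GDF6, TGFB1, TGFB3, SMAD6 and ID3 lie near 0 or on the other side.

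The choice of probe set bears on these calls. Of the 13 genes called against teratoma fibroblasts, 11 had another probe set. The next brightest pointed the same way past a difference of 1 for 3 of them (GDF15, INHBA and FST), the same way with a smaller difference for 6, and the other way for 2 (GDF6 and TGFB1). Against skin fibroblasts, 10 of 16 had another probe set, with 3, 4 and 3 in those groups. Whether those other probe sets fail to detect these transcripts was not tested.

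The lines were also set side by side. NODAL exceeded the line's own teratoma cultures by 0.85 in line 3106 and by 1.95 in line 3806, a difference of 1.10 ± 0.13 (limma adjusted p = 0.0176). NODAL alone of the 46 genes was called, beside 0.0566% of all genes. Its arrays read 7.28, 7.09 and 6.76 in C3106 and 8.39 and 8.01 in C3806. Each ESC line is 1 culture, so the error came only from the fibroblast cultures, where NODAL was below background, and the spread between ESC cultures of a line was not measured. The value therefore describes these 2 lines. Array C3806a, the one with the wide actin gap, gave the higher C3806 value. Without it the line difference was 0.91 (adjusted p = 0.0227), under the fold limit. With TB31 and TD31 left out it was 1.11 (adjusted p = 0.178), and with all 39 arrays 0.49 (adjusted p = 0.202). Over arrays, which measure array spread only, NODAL differed between the ESC lines by 1.16 (limma adjusted p = 8.08e-06), and BMP6 was higher in C3106 by 1.12 (adjusted p = 0.00476). These 2 of 46 genes stand beside 1.08% of all genes, and without C3806a neither was called, with NODAL at 0.97 (limma adjusted p = 0.00014), just under the fold limit. ACVR2B read higher in C3806 as well, and its line difference of 0.64 was not called (limma adjusted p = 0.32).

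The fibroblast cultures themselves varied in these genes. Among the 5 teratoma cultures of line 3106, 13 of the 46 genes were called by an F test over arrays in limma, beside 11.6% of all genes, with a median range of 0.53 over the 46 genes and 0.35 over all genes. TE31 was the lowest of the 5 cultures for BMP4 (7.63, others 8.35 to 9.83), BMP6 (6.53, others 7.79 to 9.29), GDF6, ID1, ID4, SMAD6 and TGFB3. ID4, a target of BMP signalling, was 8.00 in TE31 and 9.73 to 10.81 in the other 4 (limma adjusted p = 3.06e-07). SMAD6 was 7.53 in TE31 and 8.96 to 9.88 in the others (limma adjusted p = 3.19e-09), and ID1 was 9.95 against 10.60 to 11.29 (adjusted p = 0.00103). TE31 was the highest for ACVR1C (6.88), GREM1 (8.33, others 6.19 to 6.47) and TGFBR3 (10.89, others 8.13 to 10.17). BMP targets outside the 46 genes went both ways in TE31: of the 5 cultures it was the highest for TBX3 (10.17, others 6.76 to 8.51) and the lowest for KLF4 (9.57, others 10.30 to 12.04), genes chosen after their values were seen.

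TE31 held an end of the range for 10 of these 13 genes (76.9%), and it did so for 67.6% of all 1637 genes called among these cultures. The 2 shares are close, so an extreme TE31 was common across genes. Without TE31, 7 of the 46 genes were called among the remaining 4 cultures. The count over all genes in that setting is not given here, so the fall is not read as particular to these genes. The other probe sets of TGFBR3 and 2 of the 3 others of ID4 put TE31 at the same end. The second probe sets of GDF6 and TGFB3 did not.

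TD31, a culture with skeletal muscle markers, had the lowest INHBA (9.64, others 10.48 to 12.15), BAMBI (7.78, others 8.26 to 10.10) and ACVR1C (4.82). It had the highest ID1, ID4 and SMAD6. TD31 held an end for 6 of the 13 genes (46.2%), near its share among all genes called (51.7%). TB31, whose muscle signal was also strong, had INHBA at 11.85 and BAMBI at 8.99 and was not at the low end for either. The part of the muscle cells in these values was not tested. TA31 was the highest for BAMBI, BMP4, BMP6, INHBA and TGFB3 and the lowest for TGFBR3 (8.13). It held an end for 6 of the 13 genes (46.2%), beside 25.7% of all genes called among these cultures.

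**Figure D5:**
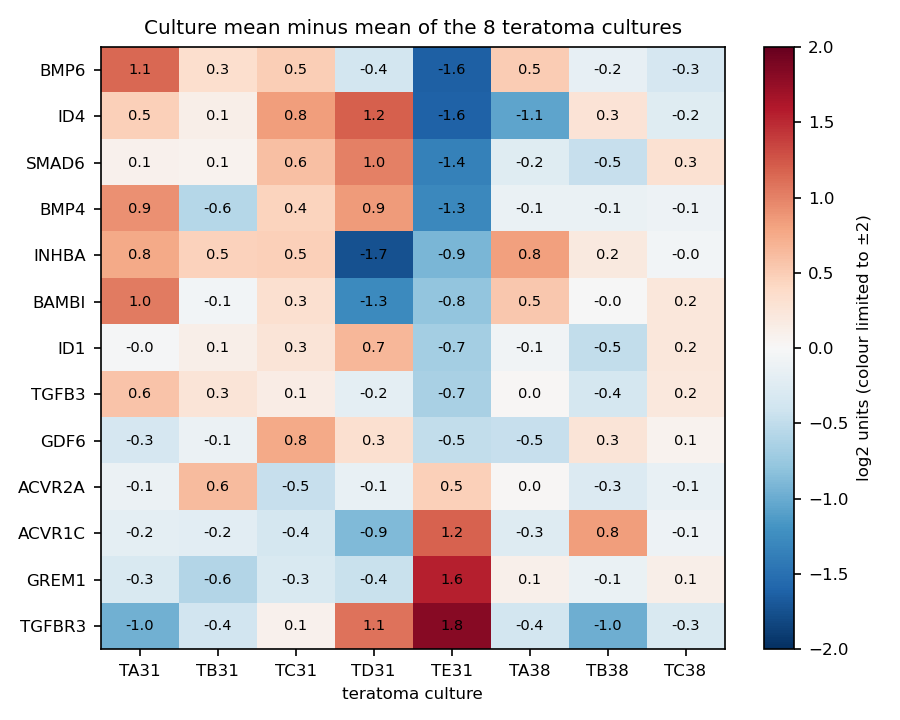
Culture mean minus the mean of the 8 teratoma cultures, in log2 units, for the 13 genes called among the teratoma cultures of line 3106 (red above, blue below, colour limited to 2 either way). TE31 is low for BMP6, ID4, SMAD6 and BMP4 and high for GREM1 and TGFBR3, and TD31 is low for INHBA and BAMBI.

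Among the 3 teratoma cultures of line 3806, ACVR1C and ID4 were called (2 of 46, beside 5.09% of all genes), both highest in TB38 and lowest in TA38, with ranges of 1.10 and 1.34 (limma adjusted p = 0.000648 and 0.00788). Among the skin cultures 10 of the 46 genes were called, beside 8.77% of all genes. TGFB3 was 9.54 in M088 and 7.40 and 7.79 in the others, and BAMBI was 7.60 in M088 and 5.26 in M032. M106p1 was the lowest for FST (9.27) and ID1 (9.64) and the highest for GDF6 (9.79), GDF15 (11.76), INHA (8.35) and ACVR1C (6.80). BMP2 was highest in M032 and BMP6 in M088. Levels thus differed between cultures of a class as well as between classes.

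Other genes around the pathway, from lists in which none of the 46 genes stood, were mostly lower in ESCs where they differed. Of 16 genes on a list for TGF-beta latency and activation, 10 were lower in ESCs than in teratoma fibroblasts and 8 than in skin. None was higher. For this and the following lists, the shares over all genes were 8.36% lower and 6.49% higher than in teratoma fibroblasts, and 9.91% lower and 10.3% higher than in skin. FBN1, the fibrillin that anchors latent complexes, was at -5.08 and -5.22. LTBP2 was at -3.30 and -4.32, and the platform protein LRRC32 at -1.68 and -3.41. HTRA1, a secreted protease, was at -3.27 and -3.20. The integrin chain ITGB8 (-3.98 and -1.79) and FBN2 (-3.37 and 0.18) were called against teratoma fibroblasts and not against skin, and FBN2 was higher in teratoma than in skin fibroblasts by 3.54 ± 0.45 (limma adjusted p = 0.00175). LTBP2 and LRRC32 were lower in teratoma than in skin fibroblasts (-1.02 and -1.74, limma adjusted p = 0.00749 and 0.0345). Of 15 further antagonists and binding proteins, 3 were lower in both comparisons: the BMP regulator BMPER (-3.56 and -4.38), the BMP antagonist NBL1 (-2.49 and -3.30) and FSTL1 (-1.07 and -1.12). Of 9 co-receptors and other receptors, 3 were lower in both, with ENG, endoglin, at -2.22 and -2.66, NRP1 at -2.74 and -2.63 and CD109 at -1.07 and -1.66. The 1 further ligand measured was not called.

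Of 24 intracellular regulators, 2 were higher in ESCs in both comparisons, near the shares of all genes: TGIF1, a homeodomain repressor that binds SMADs (1.80 and 1.93), and NEDD4L, a ubiquitin ligase for activated SMAD2 and SMAD3 (1.32 and 1.20). SMURF2, another ubiquitin ligase, was lower than in skin (-1.21), as was TOB1 (-1.08), and these 2 of 24 are also near the share of all genes. None was lower than in teratoma fibroblasts. TOB1 was also lower in teratoma than in skin fibroblasts (-1.16, limma adjusted p = 0.00706).

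Of 15 known targets of activin, nodal and TGF-beta, 8 were lower in ESCs than in teratoma fibroblasts and 7 than in skin, and 1 was higher in both. The gene higher in ESCs was GSC, goosecoid, a nodal target of the early embryo, at 1.29 and 1.44. The widest gaps were those of TGFBI (-6.70 and -6.99), IGFBP3 (-4.14 and -4.72), the cell cycle inhibitor CDKN1A (-3.49 and -3.95) and TIMP1 (-2.99 and -3.10). COL7A1 was called against teratoma (-1.95) and not against skin (-0.40). Of 15 known BMP targets, 5 were lower in both comparisons, with RUNX2, a bone transcription factor, at -5.03 and -5.22, TBX3 at -3.76 and -4.14, KLF4 at -3.31 and -2.73, MSX1 at -1.91 and -2.71 and ATOH8 at -1.04 and -2.41. UNC5B was higher in ESCs than in skin (1.56). ATOH8 was also lower in teratoma than in skin fibroblasts (-1.37, limma adjusted p = 0.00675). Many of these targets respond to other pathways too, and fibroblast markers moved with them, with 5 of 7 lower in ESCs in both comparisons. The part of cell type in these differences cannot be told apart from that of signalling.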

How the data were processed

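Deposited log2 signals were used, which the authors made with GCOS and RMA, per the submitters' processing notes (versions: not given in the sources used here). RMA corrects background, equalises the arrays' distributions and summarises probes. Array values ran from 2.11 to 14.18. Arrays have no read depth, and the number of cultures limits the precision. Gene names came from the platform's annotation. It gave 1 gene for 24956 of 52865 probe sets (controls left out), several for 361 and none for 27535.

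Here arrays were averaged by culture, without C3806c, M106p1f and TB31c. The 13 culture means (2 ESC, 8 teratoma, 3 skin) entered limma 3.58.1 (R 4.3.3) as 3 classes, leaving 10 residual degrees of freedom. The line difference used 5 classes (8 residual degrees of freedom). Differences among cultures used the 36 arrays (23 residual degrees of freedom) and also needed a range of at least 1. Errors are limma standard errors. The code was tested on simulated data. Culture values are given for genes called or defining the pathway, and from each list up to 6 called genes with the largest differences. The genes, lists and array exclusions were chosen with earlier results of these data known. No sequences were used.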

Additional observations from a re-analysis of the deposited data

Results flagged for a closer look

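Within the 8 teratoma cultures, of both lines, a single culture stood far from the rest for 4 of the 46 genes (8.70%). Chance does so for about 1 in 20 groups. The share over all genes was not counted, so the 8.70% is not read as particular to these genes. GREM1 was 8.33 in TE31, with the next culture at 6.89. SMAD5 was 10.21 in TE31, with the next lowest at 10.58. SMAD7 was 9.96 in TC31, with the next at 9.44. GDF11 was 6.64 in TC38, with the next at 6.24, all below background. The groups of ESC and skin cultures were too small for this test.

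NODAL's difference between ESCs and teratoma fibroblasts was 1.10 larger in line 3806 than in line 3106 (limma interaction, adjusted p = 0.0176). With 1 ESC culture per line, the error came from fibroblast cultures at background. The value was 0.91 without C3806a, 1.11 without TB31 and TD31 (limma adjusted p = 0.178) and 0.49 with all 39 arrays (adjusted p = 0.202).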

How the results depend on the processing

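Leaving out each culture in turn gave 1 to 4 genes higher and 9 to 10 lower in ESCs than in teratoma fibroblasts. It gave 2 to 5 higher and 9 to 14 lower than in skin, and 0 to 3 higher and 0 to 1 lower in teratoma than in skin fibroblasts (1 lower without TE31 or M106p1). Among teratoma cultures of line 3106 it gave 7 to 12. With 1 ESC line left, it was assumed to vary like the fibroblast cultures. Without C3806, 8 calls were lost: NODAL in both comparisons, FST and SMAD6 against teratoma, and BMP4, SMAD7, TGFBR3 and ACVR1C against skin. Using the second brightest probe set, which 25 of the genes have, left 1 higher and 2 lower against teratoma, 0 and 3 against skin, 0 higher in teratoma than in skin fibroblasts, and 6 among teratoma cultures of line 3106. GDF6 turned to 0.59 and 0.53, TGFB1 to 0.011 and 0.065, and ID3 against skin to 0.24. Part of the fall in counts is that fewer genes were tested. The 2 of 25 lower against teratoma stand beside 574 of 6375 genes tested, so that share was no longer above background. The mean over probe sets left 6 of 46 lower against teratoma, beside 1070 of 14132 over all genes. With all 39 arrays, 0 were higher in teratoma than in skin fibroblasts, and 0 were called for the line difference, among teratoma cultures of line 3806 and between ESC lines. With TB31 and TD31 left out, the line difference gave 0. So did C3806a left out (an alternative chosen after seeing the data, as were those on culture differences other than all 39 arrays), which also left 0 between ESC lines. The cause was not tested. With the array letter as a replicate block, counts against teratoma were 3 higher and 10 lower, against skin 4 and 12, and between fibroblasts 2 and 0. ACVR1C lost its call against skin. Deviations of arrays from their culture means correlated from -0.54 to 0.60 between same-letter arrays (median 0.05, 178 pairs). Between arrays of unlike letters they correlated from -0.63 to 0.66 (median -0.02, 419 pairs). The ranges overlap widely, and whether arrays of a letter were handled together was not tested. ACVR2B, INHBA, GDF15 and FSTL3 kept their calls in every alternative run for them. Signal near background limits NODAL, GDF3, the fibroblast values of ACVR2B, and the ESC values of INHBA, GDF6, TGFB1, TGFB3 and BMP1.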
